A study of Sus scrofa with 9 samples.

Results

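The whole blood transcriptome of the miniature pig before dosing was described from the 3 arrays that the labels place before azide feeding, out of 9 arrays in the series. The series fed azide, a poison of mitochondrial respiration, by mouth to clawn miniature pigs at 300 µg/kg and measured blood RNA at 0 h, 6 h and 24 h. The 3 arrays used here hold the 0 h blood of male SPF miniature pigs that had not been dosed and whose treatment is labelled control; the other 6 arrays were not used, and no comparison over time was made. Their age is labelled both 7 months and 7 weeks. Whether the 3 samples came from 3 animals is not stated, so the spread between arrays may in part be technical.

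Whole blood RNA comes from several kinds of cell at once. Neutrophils and monocytes are the phagocytes of the blood, T, B and natural killer (NK) cells are its lymphocytes, and platelets are fragments of bone marrow megakaryocytes that carry RNA without a nucleus. Mature red cells are also without a nucleus and retain globin RNA from the reticulocyte stage. Blood was kept in PAXgene tubes, which preserve RNA from the moment of sampling, so all of these sources were present in the extract, and the labels do not mention removal of globin RNA. In a bulk sample, fewer cells of a type and less RNA per cell cannot be told apart.

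Each array carried probes of 60 bases, and the sequences below belong to genes described later, though often not to the brightest probe of the gene. They were chosen from probes with an open reading frame, to show one abundant transcript of each main kind, the same gene read at different strengths, and genes of particular cell types. FTL is the light chain of the iron store ferritin, RPS23 is a protein of the small ribosomal subunit, TPT1 is the translationally controlled tumour protein, and EEF1A1 brings aminoacyl-tRNA to the ribosome.
FTL: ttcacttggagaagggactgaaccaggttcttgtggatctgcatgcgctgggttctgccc
RPS23: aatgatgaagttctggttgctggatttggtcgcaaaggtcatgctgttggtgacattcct
TPT1: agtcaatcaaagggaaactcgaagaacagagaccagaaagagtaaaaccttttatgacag
EEF1A1, brighter probe: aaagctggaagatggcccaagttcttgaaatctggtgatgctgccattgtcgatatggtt
EEF1A1, dimmest probe: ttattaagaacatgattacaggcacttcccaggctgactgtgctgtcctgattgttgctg
A further set shows the only globin gene with a symbol here (HBE1, epsilon-type globin), probes of the class I histocompatibility gene SLA-1 that lie in the gene's dim range, and genes of lymphocytes and of liver. CD74 is the invariant chain of class II molecules, CD3D is a chain of the T cell receptor complex, and ALB is serum albumin, made by hepatocytes.
HBE1: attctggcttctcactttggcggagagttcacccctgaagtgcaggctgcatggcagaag
SLA-1, dimmest probe: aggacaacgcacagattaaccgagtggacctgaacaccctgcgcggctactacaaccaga
SLA-1, another dim probe: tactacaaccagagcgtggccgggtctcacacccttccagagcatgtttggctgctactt
CD74: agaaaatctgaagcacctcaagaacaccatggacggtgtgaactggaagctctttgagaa
CD3D: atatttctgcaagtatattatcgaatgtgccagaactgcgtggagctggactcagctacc
ALB: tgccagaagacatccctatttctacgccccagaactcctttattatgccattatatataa
The last pair shows how one of the brightest unnamed probes overlaps a probe of EEF1G, the gamma subunit of elongation factor 1; the capitals mark the run of 44 bases that both share.
EEF1G: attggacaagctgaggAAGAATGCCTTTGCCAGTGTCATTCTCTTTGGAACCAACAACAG
unnamed: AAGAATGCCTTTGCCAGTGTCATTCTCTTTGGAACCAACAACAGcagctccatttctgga

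Levels are log2 processed signal minus the array's 75th percentile, so that 0 is the level that 75% of the probes did not exceed. They are given as mean ± SD over the 3 arrays (n = 3), or as 3 values in the order of arrays 1, 2 and 3. On this scale the printed FTL probe read 9.63 ± 0.72, the RPS23 probe 10.06 ± 0.21 and the TPT1 probe 8.97 ± 0.25. The EEF1A1 probes read 8.52 ± 0.28 and 4.88 ± 0.54 although they belong to the same gene. HBE1 read 6.17 ± 0.40, the SLA-1 probes 4.85 ± 0.16 and 5.86 ± 0.27, CD74 3.07 ± 0.52 and CD3D −0.60 ± 0.32, while the albumin probe was not well above background on any array. The EEF1G probe and the unnamed probe that overlaps it read 8.64 ± 0.23 and 8.59 ± 0.20. On arrays 1, 2 and 3 the EEF1G probe read 8.43, 8.88 and 8.60 and the unnamed probe 8.42, 8.81 and 8.53, slightly lower on each. Signal also depends on how well each probe hybridises, so the order given below is one of probe signals and does not rank the amounts of different transcripts.

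The design held 43600 usable probes, of which 3136 (7.19%) could be given a gene symbol, for 2064 genes. A transcript is called detected where a probe was well above background on all 3 arrays, and not detected where no probe was on any of them. By that rule 16723 probes were detected (38.4%) and 22066 were not (50.6%). Of the named genes 1149 of 2064 were detected (55.7%) and 717 were not (34.7%). The remaining 4811 probes and 198 named genes were above background on 1 or 2 arrays. Of the 153 negative control spots of an array, 0, 0 and 1 were called well above background on arrays 1, 2 and 3. A count of 0 allows a share of up to 1.96%. Array 2 was the dimmest, with 39.9% of probes well above background against 46.5% and 45.7%, and a 75th percentile of 55.2 linear intensity units against 81.7 and 93.6. The pairs of arrays correlated at r = 0.948 to 0.975 across the 16723 detected probes, which are not independent replicates. With 1 group of samples there was nothing to test, so no p-values are given.

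**Figure D1:**
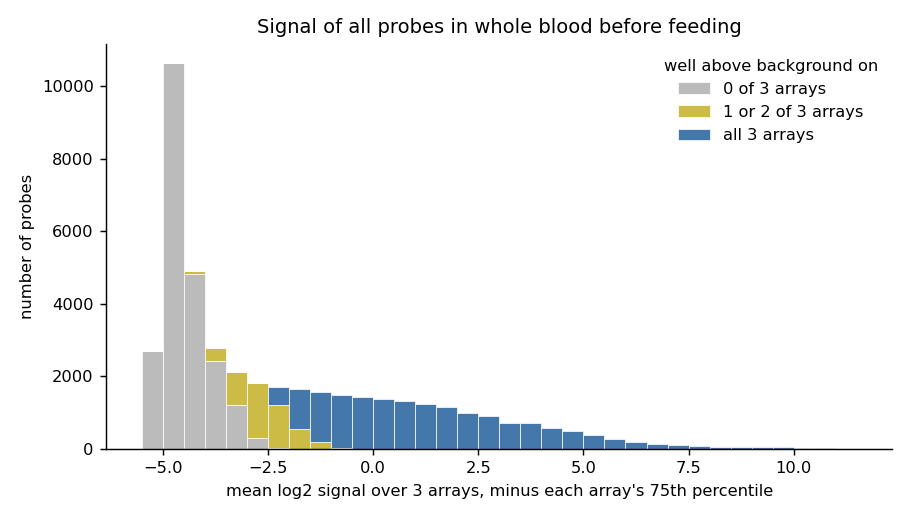
Number of probes by mean log2 signal relative to the 75th percentile (x axis, log2 units), coloured by the number of arrays on which the probe was well above background. The 16723 detected probes lie between −2.77 and 11.23, and the 22066 probes not detected form the low peak.

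Detected probes had a median level of 0.92, which is percentile 80.8 of all probes, and ranged from −2.77 to 11.23. Replicate spread was smaller at high signal: with detected probes cut by level into 4 bins of equal size, the median SD was 0.26 in the brightest bin and 0.39 in the dimmest. Signal was concentrated in few probes. The 436 brightest probes, 1% of the design, carried 61.5%, 64.6% and 60.6% of the summed signal on arrays 1, 2 and 3. The 436 included 158 named probes (36.2%, against 7.19% of all probes) of 87 genes. By symbol or description, 62 of the 436 belonged to cytosolic ribosomal proteins, 12 to class I histocompatibility genes and 10 to FTH1.

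Most of the brightest named transcripts were of 4 kinds: class I histocompatibility, iron storage, protein synthesis and the actin cytoskeleton. SLA-1, the classical class I molecule that shows peptides to cytotoxic T cells, led with 11.13, 11.46 and 11.09. FTH1, the ferritin heavy chain, followed with 11.22 ± 0.39, from 10.99 on array 1 to 11.68 on array 2, then TPT1 with 11.07, 11.32 and 10.91. FTL stood at 10.47, 11.65 and 10.97. Their means of 11.03 to 11.23 were closer together than the SD of FTL (0.59). On each of the 3 arrays the SLA-1 probe exceeded that of TPT1 and the FTH1 probe exceeded that of FTL. The other pairs among these 4 genes changed order between arrays. The ferritin genes were both highest on array 2.

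Next came RPLP2 (10.66 ± 0.24), TMSB4X and TMSB10 (10.52 ± 0.08 and 10.52 ± 0.06), which encode thymosins that bind actin monomers, and the polyubiquitin gene UBB (10.46 ± 0.12). The protease inhibitor cystatin C, CST3, read 10.25 ± 0.27. ACTB, cytoplasmic beta-actin, read 9.44, 10.75 and 10.09, and the myosin light chain MYL6 read 9.30, 10.18 and 9.02. Both had a larger spread than the thymosins. The other genes among the 25 brightest were those of ribosomal proteins, of EEF1G and EEF1A1, of the ubiquitin fusion FAU, and of ATP5IF1 (9.54 ± 0.26), the inhibitor of mitochondrial ATP synthase.

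**Figure D2:**
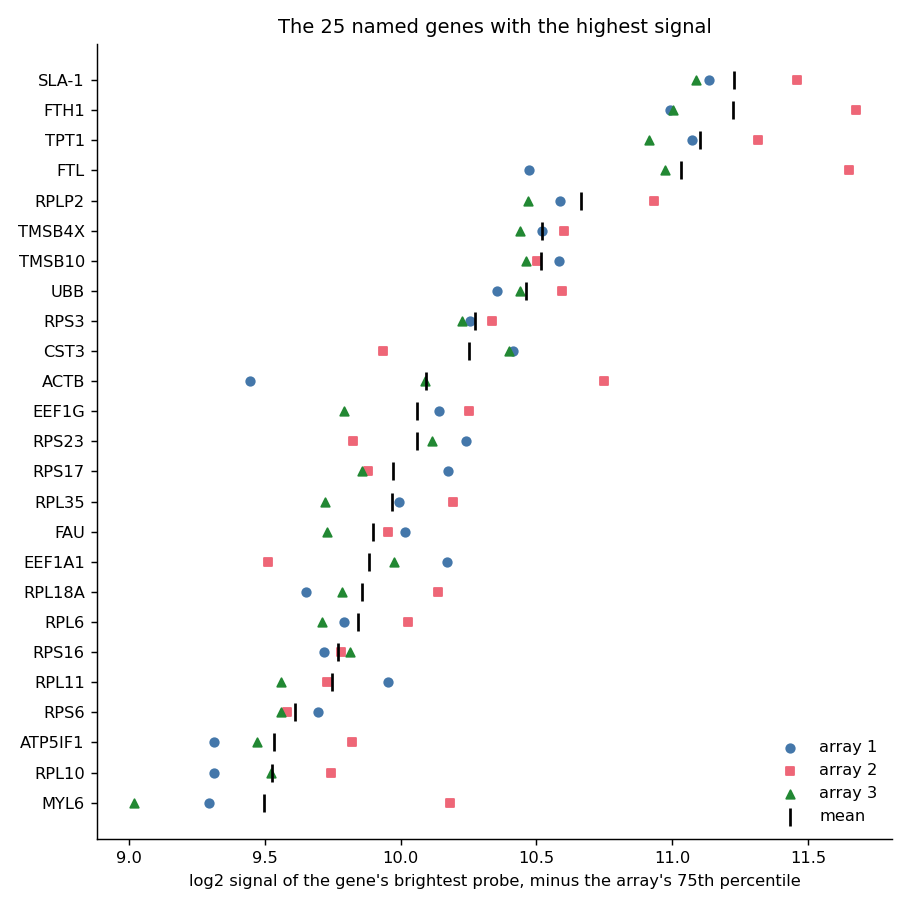
The 25 named genes with the brightest probe, as log2 signal relative to the 75th percentile (x axis); points are the 3 arrays and the vertical tick is their mean. SLA-1, FTH1, TPT1 and FTL lie between 10.47 and 11.68 on the 3 arrays, and the spread is widest for ACTB, MYL6 and FTL.

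Ribosomal protein transcripts formed the most uniformly bright group. Of 40 named genes, 37 were detected and 30 lay in the brightest 1%, with a median percentile of 99.7 against 68.6 over all named genes. Large-subunit examples were RPL35 (9.97 ± 0.24) and RPL11 (9.75 ± 0.20). In the small subunit, RPS3 read 10.26, 10.34 and 10.22 and RPS16 read 9.72, 9.78 and 9.82. RPS3 and RPS16 were nearly level across arrays. The median SD of the detected ribosomal genes was 0.20, against 0.37 over all detected named genes. That contrast depended on the scaling. It was 0.27 against 0.37 with quantile normalization, where 25 of the 37 were highest on array 1. With normexp background correction it was 0.25 against 0.27. RPL31 and RPL9 were not detected, RPS20 was above background on 1 array, and RPS25, RPLP1 and RPS10 were detected at −0.16, −0.63 and −0.97. For RPS10, 2 unnamed probes that shared at least 25 bases with a named probe of the gene read 8.66 and 8.59, within the brightest 1%.

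All 10 named translation factors and related genes were detected. RACK1, a scaffold protein of the small ribosomal subunit, read 8.80 ± 0.33. Probes of the initiation factor helicases read 5.48 (EIF4A3), 4.66 (EIF4A2) and 2.46 (EIF4A1), and the cap-binding EIF4E stood at 0.83 ± 0.46, near the median of detected probes.

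Probes of one gene differed widely. Of 715 genes with 2 or more probes, 306 (42.8%) had probe means more than 3 apart on the log2 scale, and in 152 (21.3%) 1 probe was detected and another was not above background on any array. All 10 FTH1 probes lay in the brightest 1%, from 11.22 down to 9.01, and the 4 TPT1 probes ranged from 11.10 to 8.97. The 10 SLA-1 probes ranged from 11.23 to 4.85, and the 8 EEF1A1 probes from 9.89 to 4.88. FTL had a probe at 11.03 and another at −4.89 that was not detected, and CYBA had probes at 7.91 and −0.75. Each gene is therefore given by its brightest probe.

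Antigen presentation was the next bright process. Of 15 named genes 14 were detected, 6 of them in the brightest 1%, with a median percentile of 98.6. Among class I genes, SLA-3 read 7.93 ± 0.34 and the non-classical SLA-7 read 7.58 ± 0.30, while SLA-6 was not detected. Class II genes, which present peptides to helper T cells, were led by SLA-DRB1 (8.03 ± 0.26), SLA-DQB1 (7.58 ± 0.23), SLA-DRA (7.40 ± 0.34) and the peptide-loading SLA-DMA (6.85 ± 0.14). SLA-DRB1 was highest on array 1 (8.31) and lowest on array 3 (7.78). Genes of the immunoproteasome, PSMB9 (6.43 ± 0.07), PSMB10 (5.30 ± 0.18) and PSMB8 (4.36 ± 0.11), varied little. The peptide transporter subunits stood at 4.28 ± 0.97 (TAP2) and 1.86 ± 0.15 (TAP1). The class I genes are closely related in sequence, so their signals cannot be assigned to a single gene with certainty.

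All blood cell types with a gene list had detected members, and 31 of the 41 lists of cells, tissues and processes exceeded the 55.7% share of detected genes. The lists were chosen with earlier results of these data known, and some share members, so this count is a description only. The lists named 1685 genes, of which 745 had a named probe, so each describes only the genes this design can name.

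**Figure D3:**
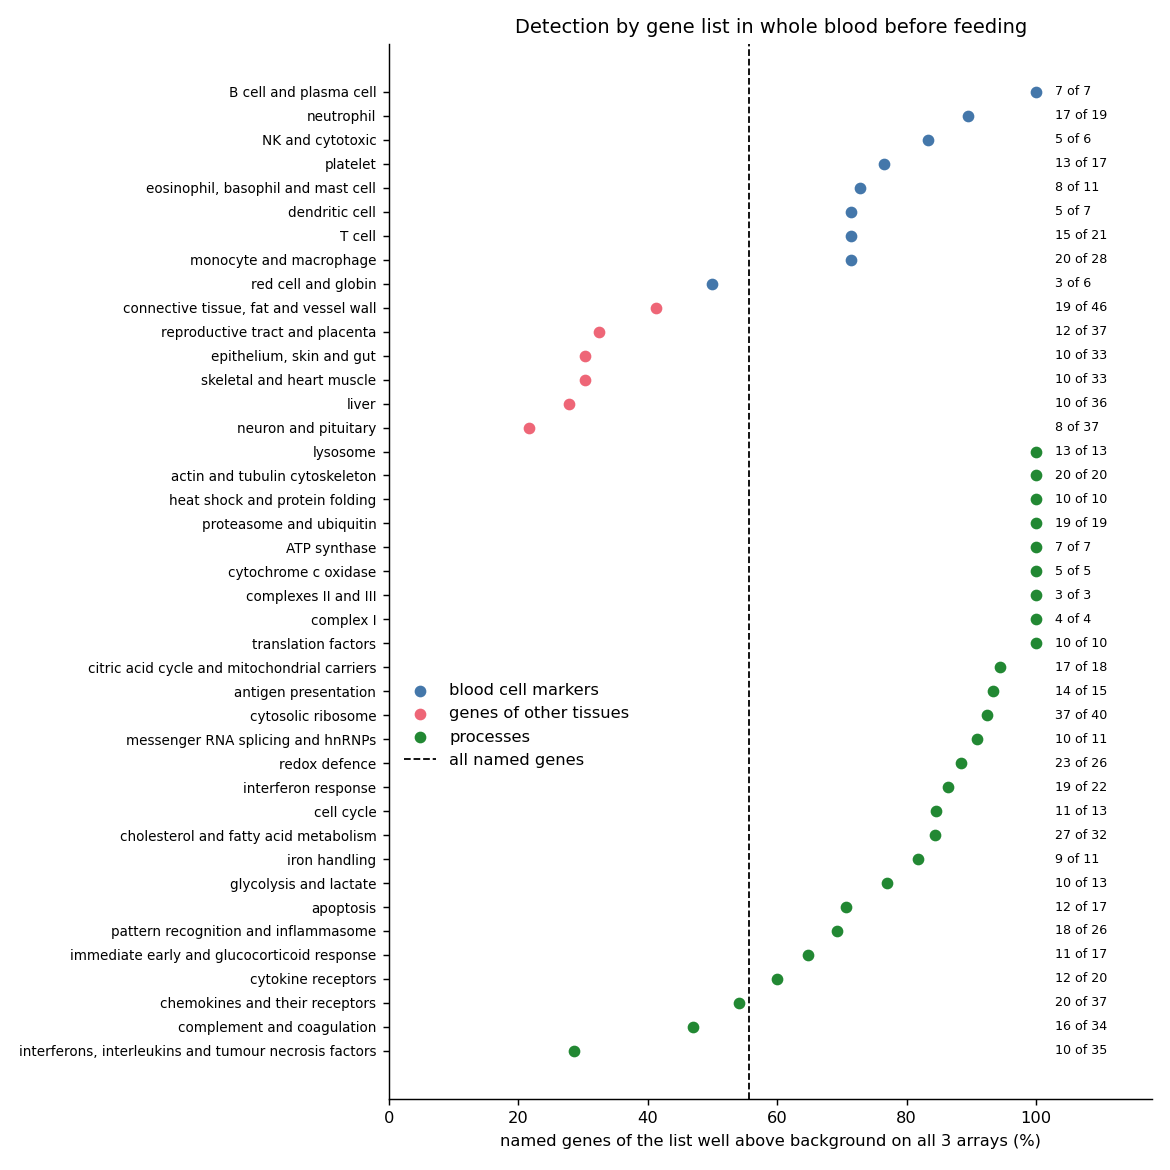
Percent of the named genes of each list that were detected on all 3 arrays (x axis, percent), for blood cell, other tissue and process lists, with the number of genes beside each. The line marks the 55.7% of all named genes. The blood cell lists other than the red cell list lie above it and the 6 tissue lists below it. Lists were chosen with earlier results of these data known.

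Neutrophil genes were detected in 17 of 19 cases, with a median percentile of 92.9. CYBA, the membrane subunit of the NADPH oxidase, read 7.95, 7.95 and 7.84. MMP9, the gelatinase of neutrophil granules, read 7.30, 8.41 and 7.72, and the chemokine receptor CXCR2 read 6.37, 7.44 and 7.28. CYBA was level across the arrays, while MMP9 and CXCR2 were lowest on array 1. ARG1, the arginine-cleaving enzyme, ran the other way with 7.57, 5.96 and 6.50. Among other granule proteins, lactoferrin (LTF) read 3.17 ± 0.14, the peptidoglycan receptor PGLYRP1 2.41 ± 0.28 and the protegrin NPG4 1.70 ± 0.45. TREM1, an amplifier of phagocyte activation, read 3.80 ± 0.29, RETN (resistin) 3.57 ± 0.54 and the oxidase subunit NCF1 3.35 ± 0.79. The water channel AQP9 and the antimicrobial peptide PR39 were not detected. The count includes a probe named DEFB1 in the tables but described as beta-defensin 2 (3.99, 3.33 and 3.42), and its identity was not settled.

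Monocyte and macrophage genes were detected in 20 of 28 cases. FCGR3A, the low-affinity IgG receptor that NK cells also carry, read 7.75, 7.84 and 7.70. Lysosomal cathepsin B (CTSB) read 6.11 ± 0.31, the adaptor TYROBP 6.07 ± 0.37 and lysozyme (LYZ) 6.55, 5.06 and 6.10. FCGR3A hardly moved between arrays, whereas LYZ was lowest on array 2. CD14, the lipopolysaccharide co-receptor of monocytes, read 2.79, 4.30 and 4.49. The other monocyte genes were AIF1 at 4.50 ± 0.08, FCN1 (ficolin) at 4.46 ± 0.51 and the haemoglobin scavenger receptor CD163 at 1.46 ± 0.41. CD14 was lowest on array 1 and CD163 on array 2. Genes that tissue macrophages express strongly, C1QA, C1QB, APOE and SIGLEC1, were not detected, nor was the high-affinity receptor FCGR1A.

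T cell genes were detected in 15 of 21 cases. The CD3 chains, which carry the signal of the T cell receptor, were read at 5.99, 5.29 and 5.48 for CD3D, 4.59, 3.11 and 4.08 for CD3G and 2.85, 3.26 and 3.26 for CD3E. CD3D and CD3G were highest on array 1 and CD3E lowest there. CCR7, the chemokine receptor that guides T cells to lymph nodes, read 5.99 ± 0.37. The T helper 2 transcription factor GATA3 read 5.10 ± 0.52. The CD8 chains were detected (CD8A 2.24 ± 0.59, CD8B 0.93 ± 0.27), while CD4 was above background on 1 array. CTLA4, CCR6 and IL7 were not detected. The brightest probe described as a T cell receptor chain, a gamma chain, read 4.29, 4.68 and 5.15, and 9 of 20 such probes were detected, a share close to the 38.4% of all probes.

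NK and cytotoxic genes were detected in 5 of 6 cases. NKL, NK-lysin, an antimicrobial protein of cytotoxic granules, read 7.49, 8.96 and 9.13. The adaptor HCST read 6.54 ± 0.19 and its receptor partner KLRK1 read 2.38 ± 0.71. Perforin (PRF1) was dim, at −2.28, −0.90 and −0.54. NKL and PRF1 were both lowest on array 1. The death ligand FASLG was not detected.

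All 7 named B cell genes were detected, though the list held 42 genes. CD40, the receptor for T cell help, read 5.46 ± 0.35 and is listed for dendritic cells too. VPREB1, a surrogate light chain of B cell precursors, read 4.47, 4.22 and 5.41. CD74 read 3.07 ± 0.52, CD72 2.30 ± 0.74, CD180 0.62 ± 0.23 and the transcription factor POU2F2 −0.98 ± 0.37.

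Immunoglobulin probes split by what they were made from. Of 8 probes for a pig IgG heavy chain entry, 7 were detected, the brightest at 5.30, 6.30 and 6.58. Of 63 probes made from rearranged clones or variable regions, 5 were detected (7.94%, against 38.4% of all probes) and 53 were not. All 7 detected IgG probes and all 5 detected clone probes were lowest on array 1, where their means were 3.49 and −1.70 against 4.91 and 0.85 on array 2 and 5.22 and 0.61 on array 3. An IgD constant region probe did not show this order, at 3.98 ± 0.16. The 4 light chain probes were all detected, the brightest at −0.03, 1.38 and 0.94, again lowest on array 1. Array 1 was also the lowest for 53.3% of all 1149 detected named genes. Probes of this family share long stretches of sequence and are not independent readings.

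Granulocytes other than neutrophils, and mast cell progenitors, were represented by 8 detected genes of 11. ALOX5AP, which hands arachidonate to leukotriene synthesis in most myeloid cells, read 7.53 ± 0.17, and the lipoxygenase ALOX15 read 5.77 ± 0.24. Prostaglandin D synthase (PTGDS) read 4.03, 5.73 and 5.33, and FCER1G, the signalling chain of the IgE receptor, read 3.46, 5.11 and 4.78. Both were lowest on array 1. The eosinophil receptor CCR3 read 1.71 ± 0.20 and MS4A2, the IgE receptor beta chain, −0.89 ± 0.49. The type 2 cytokines IL4, IL5 and IL13 were not detected. Of 7 dendritic cell genes 5 were detected, with CD1D, which presents lipids, at 3.99 ± 0.20 and XCR1, the receptor of cross-presenting dendritic cells, at 0.59, 2.32 and 1.08.

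Of the red cell list, 3 of 6 named genes were detected (50%), near the 55.7% of all named genes. The list held 47 genes, so most had no named probe. HBE1 read 6.97, 7.51 and 7.15, and another epsilon-globin probe without a symbol read 7.37, 7.90 and 7.48. The blood group gene RHCE read 3.25 ± 0.17. The transferrin receptor TFRC, abundant in reticulocytes, was not detected, and the erythropoietin receptor EPOR was above background on 1 array. No probe carried the symbol of an adult alpha or beta globin. The only probe described as haemoglobin alpha was not well above background on any array, at −5.20, −4.42 and −5.00. Adult globin RNA could therefore not be read reliably from the named probes, and its level in these samples is not known.

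Platelet genes were detected in 13 of 17 cases, with a median percentile of 91.3, and several had a wide spread over the 3 samples. ITGA2B and ITGB3, the paired chains of the fibrinogen receptor, read 3.98, 6.59 and 5.52 and 3.49, 6.10 and 5.31. P-selectin (SELP), released to the platelet surface on activation, read 3.46, 5.91 and 4.86. Von Willebrand factor (VWF), made by megakaryocytes and endothelium, read 1.12, 4.29 and 2.73. In each of these array 1 was lowest, array 2 highest and array 3 between. THBS1 (thrombospondin; 2.03, 4.24 and 2.91), CLU (clusterin; 2.16, 4.86 and 3.88) and PPBP (platelet basic protein; 2.72, 4.36 and 3.04) had the same order. CD9 (4.96 ± 0.33) and CD36 (1.42 ± 0.43), which monocytes and other leukocytes also express, and TMSB4X (10.52 ± 0.08) did not.

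Of the 13 detected platelet genes, 10 were lowest on array 1 and 11 highest on array 2. Of all 1149 detected named genes, 53.3% were lowest on array 1 and 560 were highest on array 2. The mean excess of array 2 over array 1 was 1.58 for the platelet genes and 0.28 for all detected named genes, and it stayed between 1.24 and 1.61 for the platelet genes under the other scalings tried. The median SD was 0.87 for the platelet genes and 0.37 for all detected named genes. Array 2 was also the dimmest array. Its mean excess was 0.56 to 1.15 for the detected genes of the 6 other-tissue lists, lowest for neuron and pituitary and highest for epithelium, skin and gut, and 0.30 for interferons, interleukins and tumour necrosis factors. What part array brightness had in the platelet result was not tested. The labels give no platelet counts.

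**Figure D4:**
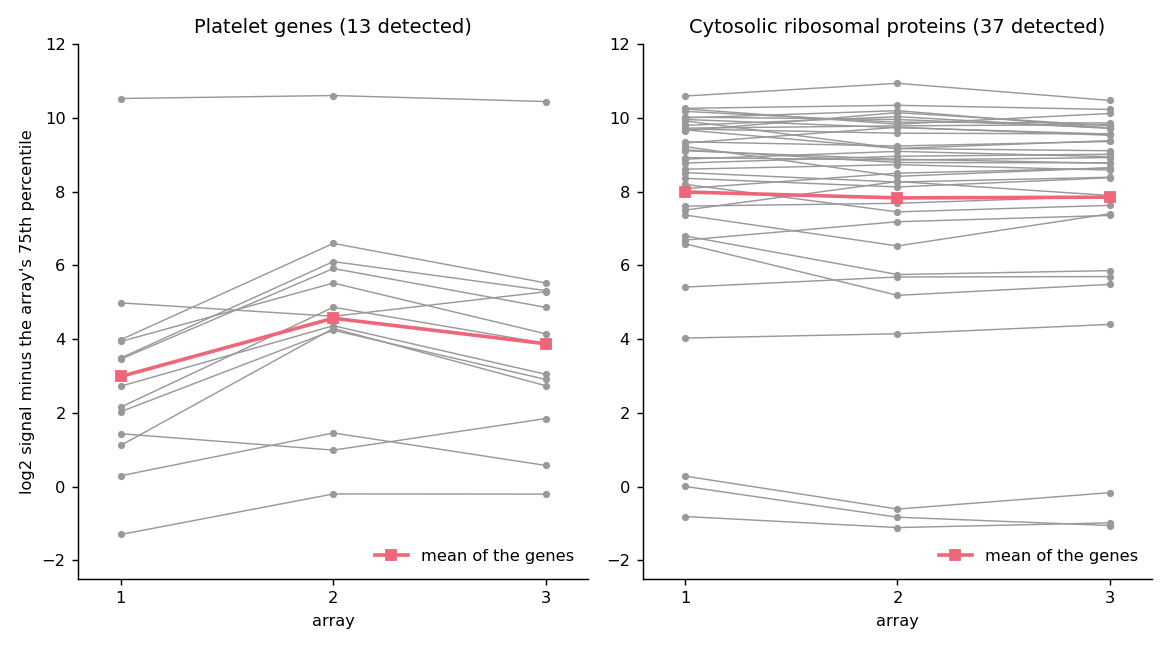
Log2 signal relative to the 75th percentile (y axis) on each of the 3 arrays for the 13 detected platelet genes (left) and the 37 detected ribosomal protein genes (right); grey lines join the values of one gene and the red line is the mean. Platelet genes averaged 2.99, 4.56 and 3.87 on arrays 1, 2 and 3, and the ribosomal genes averaged 7.99, 7.83 and 7.85.

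The middle of the detected range, around 0.92, held genes of many functions. The 10 named genes nearest to it included OXCT1 (0.92), which uses ketone bodies, the vesicle transport GTPase RAB1A (0.93), CD8B (0.93), the negative elongation factor subunit NELFE (0.93), the angiopoietin ANGPT2 (0.93), KLF13 (0.93) and the platelet-activating factor hydrolase subunit PAFAH1B1 (0.90). CBR1, ATP1B1 and RPS6KB1 completed the set at 0.94, 0.90 and 0.94. Most varied little, while RPS6KB1, the kinase of ribosomal protein S6, had an SD of 0.89.

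Energy metabolism was broadly detected. All named genes listed for respiratory complex I (4 of 4), complexes II and III (3 of 3), cytochrome c oxidase (5 of 5) and ATP synthase (7 of 7) were above background. The brightest of each list were NDUFA4 (4.44 ± 0.24), SDHB (5.44 ± 0.23), COX7A2 (5.89 ± 0.37) and ATP5IF1. NDUFA4 was placed under complex I by its name alone, and ATP5IF1 is an inhibitor of ATP synthase, not a subunit. Cytochrome c oxidase is the enzyme that azide blocks, and before dosing its COX6C read 5.98, 5.12 and 5.05 and COX7C 4.51, 3.53 and 3.24, both highest on array 1. COX7A1 and COX8H, the forms known from muscle, read 2.13 ± 0.37 and 0.13 ± 1.21. In the citric acid cycle and carrier list 17 of 18 genes were detected, led by the ADP/ATP carrier SLC25A6 (9.15 ± 0.09) and isocitrate dehydrogenase IDH2 (5.81 ± 0.07).

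Glycolysis and its side paths were detected in 10 of 13 genes. TKT and PGD, enzymes of the pentose phosphate pathway that supplies NADPH, read 7.04 ± 0.20 and 6.04 ± 0.30. LDHB, the heart-type lactate dehydrogenase subunit, read 6.32 ± 0.35 and PGK1 4.27 ± 0.13. HK2 and the testis forms PGK2 and LDHC were not detected. In lipid metabolism 27 of 32 genes were detected, led by the desaturase FADS1 (6.20 ± 0.10). The sterol regulators SREBF1 (3.24, 5.78 and 5.51) and SREBF2 (3.61, 5.46 and 4.89) were both lowest on array 1. The lipid receptors PPARA and PPARG and the desaturase FADS2 were not detected.

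Cytokine genes were detected less often than named genes at large in these undosed pigs. Of 35 interferons, interleukins and tumour necrosis factors, 10 were detected (28.6%, against 55.7% of all named genes). Another 18 were not, against 34.7% of all named genes, including IL2, IL6, IL17A, CSF2, IFNA1 and IFNB1. Those detected were led by genes that resting leukocytes are known to hold: IL16 at 6.68, 6.75 and 6.85, the macrophage migration inhibitory factor MIF at 6.59 ± 0.25, TGFB1 at 3.24 ± 0.54 and IL18 at 2.19 ± 0.22. IL16 was nearly level across the arrays. TNF was detected at 1.65 ± 0.10. Chemokines and their receptors were detected in 20 of 37 cases (54.1%), close to the share of all named genes. Receptors were the brighter members, CXCR2 and CCR7 as above and CCR1 at 6.48 ± 0.18. The inducible ligands CCL2, CXCL2 and CXCL8 were not detected, whereas the inducible CXCL10 was, through 1 of its 2 probes at a mean of −0.02. Of 20 cytokine receptors 12 were detected (60%), also close to that share. The brightest was TNFRSF1A, the main receptor for tumour necrosis factor, at 5.91 ± 0.38.

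Sensors of microbes were detected in 18 of 26 cases (69.2%, against 55.7% of all named genes). The adaptor MYD88 read 7.53 ± 0.56, the NF-kappaB inhibitor NFKBIA 7.23 ± 0.37 and caspase 1 (CASP1) 3.94 ± 0.19. Among Toll-like receptors, TLR2 read 2.88 ± 0.21, TLR1 2.35 ± 0.60, TLR4 1.19 ± 0.19 and TLR7 1.03 ± 0.12, while TLR3, TLR6, TLR8 and TLR9 were above background on 1 or 2 arrays. NOD2 and the liver-made lectins MBL1 and MBL2 were not detected. Complement and coagulation genes were detected in 16 of 34 cases (47.1%, against 55.7% of all named genes). Factor D (CFD), a protease of the alternative pathway, was the exception in brightness at 9.12, 9.09 and 8.76. The complement shield CD55 read 4.59 ± 0.68 and coagulation factor V (F5) 2.99 ± 0.45, while C1S and the terminal components C5, C6, C7 and C9 were not detected.

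Interferon-response genes were detected in 19 of 22 cases, and several differed between the samples. IFITM1, a membrane protein that limits virus entry, read 8.08, 8.33 and 7.36. OAS2, which makes the activator of RNase L, read 7.00, 6.64 and 5.61, and IRF7 read 5.53, 6.09 and 5.07. All 3 genes were lowest on array 3. Chosen after their values were seen, the antiviral GTPases MX1 (6.27, 5.30 and 4.20) and MX2 (1.54, 1.24 and −0.62) and the antiviral enzyme RSAD2 (1.49, 0.42 and −1.01) were highest on array 1 and lowest on array 3. The chemokine CXCL10 read 1.83, −0.82 and −1.08. Its other probe was not detected, at −4.31, and CXCL9 was not detected. Of the 19 genes, 10 were lowest on array 3, against 220 of all 1149 detected named genes. The mean of array 3 minus array 1 was −0.67, against 0.20 over all detected named genes. It ranged from −0.49 to −0.71 under the other scalings. STAT2 (4.60 ± 0.12) and IRF1 (3.75 ± 0.08) differed little between arrays.

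Protein turnover and stress genes were detected nearly throughout. All 19 named proteasome and ubiquitin genes were detected, among them SUMO2 (7.13 ± 0.24). All 10 heat shock and folding genes were detected, with the small heat shock protein HSPB1 at 7.22 ± 0.64, HSP90AA1 at 5.92 ± 0.69 and the mitochondrial chaperonin HSPD1 at −0.25 ± 0.03. Redox defence genes were detected in 23 of 26 cases. The glutathione peroxidase GPX1, abundant in red cells, read 7.84, 8.33 and 8.41, methionine sulfoxide reductase MSRB1 6.64 ± 0.20, SELENOW 5.79 ± 0.14 and PRDX6 5.28 ± 0.65. GPX5, GSTA1 and SOD3 were not detected. Among iron genes outside ferritin, SLC11A1, the iron exporter of phagosomes, read 3.03 ± 0.42 and haem oxygenase HMOX1 1.25 ± 0.33.

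All 20 actin and tubulin genes were detected, 6 in the brightest 1%. The tropomyosin TPM4 read 7.71, 9.34 and 7.99, highest on array 2 like ACTB and MYL6, and cofilin (CFL1) read 7.07 ± 0.37. All 13 lysosome genes were detected, led by the tartrate-resistant phosphatase ACP5 (7.02 ± 0.10), CTSB and ATP6V0E1 (5.88 ± 0.15). Cell cycle genes were detected in 11 of 13 cases, with CCND2 at 5.69 ± 0.34 and BIRC5 at 5.20 ± 0.64, while AURKA was not detected. Apoptosis genes were detected in 12 of 17 cases (70.6%, against 55.7% of all named genes). The survival factor MCL1, on which neutrophils depend, read 8.09, 7.87 and 7.59, and its relatives BCL2 and BCL2L1 were not detected. In the splicing list 10 of 11 genes were detected, with SRSF1 at 4.75 ± 0.35. Of 17 immediate early and glucocorticoid-response genes 11 were detected (64.7%, against 55.7% of all named genes). BTG2 read 5.61 ± 0.50, CEBPB 5.26 ± 0.19, BTG1 5.17 ± 0.58 and JUN 4.34 ± 0.64, while EGR1, EGR2 and EGR3 were not detected.

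Of genes known from tissues other than blood, each list had a smaller share detected than the 55.7% of all named genes, with 10 of 36 liver, 10 of 33 muscle, 8 of 37 neuron and pituitary, 10 of 33 epithelial, 12 of 37 reproductive and 19 of 46 connective tissue, fat and vessel genes. Defining products were among those not detected: ALB, APOA1, TTR and SERPINA1 of liver, CKM, MYH2 and MSTN of muscle, POMC, GH1 and GFAP of pituitary and brain, KRT18, CDH1 and INS of epithelia and islets, and COL1A1, COL1A2 and ADIPOQ of connective tissue and fat. Other well-known products were detected: DES (2.84), PYGM (2.82) and MYOG (2.76) of muscle, and MBP (2.52) and LHB (1.94) of brain and pituitary. CRP (1.19) and RBP4 (0.54) of liver and AMH (3.43) and CYP19A1 (2.73) of the reproductive list were detected too. DES, PYGM, MYOG, CRP and CYP19A1 each also had a probe that was not detected. Some listed genes were bright. ACP5 (7.02 ± 0.10) is listed for uteroferrin of the pig uterus and is also a macrophage enzyme, and UCP2 (6.70 ± 0.55), a mitochondrial carrier, is known from leukocytes too. MUC2, an intestinal mucin, read 6.34, 6.52 and 5.79, the orexin gene HCRT 3.89 ± 0.37, IGFBP1 4.33 ± 0.24 and the pancreatic colipase CLPS 2.75, 5.07 and 4.59. These were detected on all arrays, and whether their probes also bind other transcripts was not tested.

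Detection was also counted by the tissue from which a probe's cDNA clone was made, where the description gives it. Of the probes from thymus clones 82.6% were detected (581 probes), of those from peripheral blood mononuclear cells 82.3% (130) and from spleen 79.6% (318). Clones of liver gave 63.2% (612) and of trachea 62.5% (200). Each was above the 38.4% of all probes, with lung (75.4%), ovary (74.1%) and mesenteric lymph node (72.2%) in the middle of the order. Clones of alveolar macrophages, a myeloid cell, gave 68.3% (457).

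**Figure D5:**
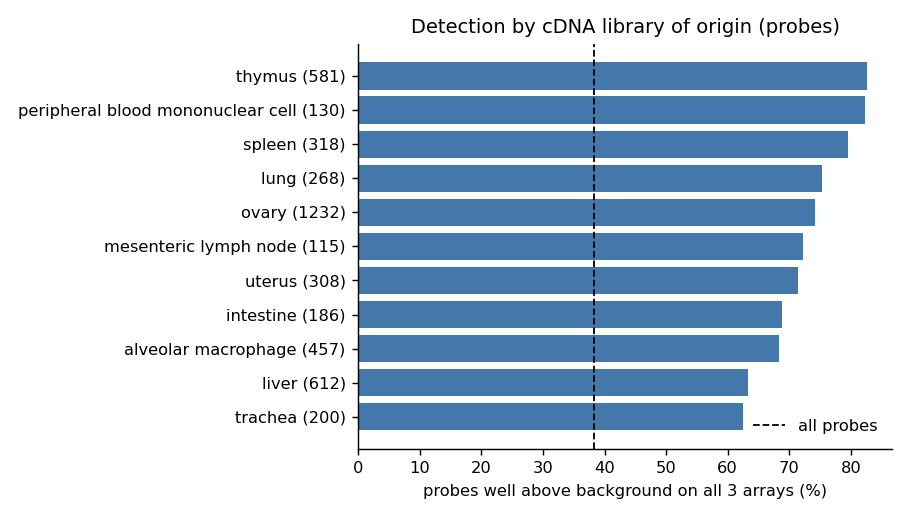
Percent of probes detected on all 3 arrays (x axis, percent) by the tissue of the cDNA clone that the probe description names, for libraries with at least 100 probes. Thymus, blood mononuclear cells and spleen lead with 82.6%, 82.3% and 79.6%, and the line marks the 38.4% of all probes.

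The sources used here gave no gene symbol for 278 of the 436 brightest probes. The brightest of these ranked 3 among all probes, from an expressed sequence tag, at 10.98, 11.74 and 10.92. Descriptions of 193 pointed to expressed sequence tags or cDNA clusters, 48 to contigs, and 33 read "Unknown". Only 13 (4.68%) shared a run of at least 25 bases with a named probe, of SLA-1, SLA-3, RPL35, RPL10A, RPS28, RPS10, EEF1A1, EEF1G, ACTB or HBE1. The overlapping SLA-1 probe ranked 7 of all probes, at 11.02 ± 0.30.

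Among detected probes, 395 (2.36%) had an SD above 1 on the log2 scale. The named gene with the largest spread was C20ORF52, an older name of the mitochondrial ROMO1, at 3.82, 9.20 and 7.58. It was followed by the muscle phosphofructokinase PFKM (−2.44, 0.82 and −0.16), CXCL10, VWF, the prohormone convertase PCSK2 and the glutathione-cleaving GGT1 (1.02, 3.93 and 2.40). SREBF1, CLU, ITGB3 and PDZK1IP1 completed the 10 largest. Of these 10, CXCL10 was highest on array 1 and the other 9 were lowest on array 1, as were 53.3% of all detected named genes. The smallest spreads belonged to CD34, the stem and endothelial cell antigen (−1.37, −1.36 and −1.36), RBM38 (6.83 ± 0.019), LTA (−0.28 ± 0.024), MED27 (3.18 ± 0.027) and HSPD1.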

How the data were processed

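Whole blood RNA was labelled with Cy3 and hybridised to 1 Agilent one-colour array per sample, per the labels' protocols. Per the file headers, the deposited processed signal is an intensity with background subtracted and spatial trends removed within the array, without normalization between arrays; surrogate values replace signals not above background (28.4% to 36.9% of probes). Feature Extraction is version 10.5.1.1 in the headers but 9.5.3.1 in the submitters' processing notes. The deposited series-wide intensity table served as an alternative; how it was made was not stated. The 3 arrays lay on 1 slide.

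Control and outlier spots were removed, repeated spots averaged and 3 of 43603 probes dropped. Log2 signal minus each array's 75th percentile was averaged over the 3 arrays. No probe was saturated, repeated spots had a median SD of 0.0786 to 0.0868, and 3 arrays limit the precision. Symbols came from RefSeq accessions (2002 probes) and gene IDs (120), both matched to the RefSeq gene table of Sscrofa11.1. Others came from the gene name column (940), a similar protein named in the description (57) or the description itself (17). For similar ribosomal proteins the description had to state a match that was complete or partial at 50% or more. Similar pig proteins of other kinds had no minimum. A gene is given by its brightest probe and counts as detected if any probe is. Probe sequences are those of the deposited files.

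Named genes were the 25 brightest, up to 4 detected and 3 undetected members per list, the 10 largest and 5 smallest SDs, the 10 nearest to the median of detected probes and the brightest probe of each description class. Other list members, printed to complete a group, were chosen after their values were seen, as was limiting classes to descriptions that name a pig sequence. The values of some genes are left out of this text. The members and lists were chosen with earlier results of these data known. Alternatives covered detection rule, outlier spots, scaling, normexp background correction (offset 50), the middle probe, RefSeq names and leaving out each array. The ranking and detection steps were run on simulated data as a check of the code only. Detection flags were set in advance there, so the run says nothing about detection in the real arrays. Python 3.11.15, pandas 2.3.3, numpy 2.4.6, scipy 1.17.1, matplotlib 3.10.9, R 4.3.3 and limma 3.58.1 were used.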

Additional observations from a re-analysis of the deposited data

How the results depend on the processing

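The number of detected probes, 16723, became 19318 when 2 of 3 arrays sufficed, 24173 with the scanner's positive and significant flag, 16725 with outlier spots kept, and 16886 to 18866 when an array was left out. Detected named genes, 1149, became 1248, 1458 and 1149 under the first 3 of these, 983 with the middle probe of each gene, 823 of 1450 (56.8%) with RefSeq names alone, an alternative chosen after seeing the data, and 1154 to 1220 without an array. The lists above the share of all named genes stayed at 31 to 33. Of the 436 brightest probes, 417 were kept by normexp, 436 by quantile normalization, 434 by the deposited series-wide values and 417 to 424 when an array was left out. The median SD of detected probes, 0.34, was 0.33 to 0.34 under quantile normalization and median centring. It was not computed over all detected probes with normexp, where that of the detected named genes fell from 0.37 to 0.27. The order of arrays and the spread within lists, given above for the platelet, interferon and ribosomal lists, were recomputed under 4 other scalings after seeing the data.

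With the middle probe, 14 of the 25 brightest genes stayed among the 25, and the detected liver and muscle genes fell from 10 and 10 to 3 and 6. Those 2 list counts moved by more than 1.5 times, and the other 203 recomputed did not. No paired analysis was possible because only 1 group was used. Dim transcripts near background, genes that the design does not name and adult globins could not be described.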

Other observations

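Antimicrobial peptides, olfactory receptors and mitochondrially encoded genes were read through probes whose descriptions name a pig sequence of these kinds. Of 9 antimicrobial peptide probes, 2 were detected and 5 were not, beside 50.6% of all probes that were not detected. None of the 8 olfactory receptor probes, genes of the nasal epithelium, was detected on all 3 arrays, against 38.4% of all probes. Of these 8, 2 were above background on 1 or 2 arrays, the brightest at −2.70, −1.68 and −2.83. Both probes of mitochondrially encoded genes were detected, against 38.4% of all probes, the brighter at 1.02, 1.24 and 0.60.

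Base composition differed little between the sets of probes. All were 60 bases long, and the median GC content was 40% among detected probes, 38.3% among those not detected and 41.7% among the brightest 1%. The share detected was 37.6% at 30% to 40% GC and 38.6% at 40% to 50%, and it was 62.5% for the 464 probes at 50% to 60%.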
